A study of Rattus norvegicus with 9 samples.

Results

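The genes described here encode the mitochondrial respiratory chain and the ATP synthase, together with the factors that assemble them. They were taken by gene symbol, with no use of measured values: every probe set that carried exactly 1 symbol, where that symbol began with Nduf, Sdha to Sdhd, Uqcr, Cox4 to Cox8 or Atp5. The rule found 101 of the 31099 probe sets on the array, which stood for 90 of the 14218 genes with a probe set of 1 symbol. A filter on dim probe sets kept 96 of the 101, or 87 genes. The 5 left out were the only probe sets of Cox4i2, Cox7b2 and Cox8b and 2 further probe sets of Atp5if1. Of the 87 genes, 70 encode subunits of the 5 complexes, 10 are assembly factors, 4 are tissue-specific isoforms and 3 are other genes of these families (Atp5if1, Cox7a2l and the Cox6c pseudogene Cox6c-ps1). Another 7 probe sets that matched by name carried several symbols and were not counted.

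RNA came from the cortex of Hsd:Sprague Dawley SD rat pups of the F2b litters on postnatal day 4 (PND4). The 3 groups received 0, 750 or 2500 ppm of 4-methylimidazole (4-MeI) in the diet, with 3 pups in each. Dosing of the F0 parents began before mating, and exposure went on over successive matings and generations, so that the pups were exposed through their mothers. The series title names maternal seizures, but the labels do not say which mothers had them, and they give no sex or batch. The labels tell of 1 pup taken per litter and 3 biological replicates per group, so the p-values measure the spread between such pups. All values are log2 intensities, on which a difference of 1 is a doubling.

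The inner mitochondrial membrane carries 4 electron transfer complexes and the ATP synthase, counted as complex V. Complexes I and II take electrons from NADH and succinate and pass them to ubiquinone, complex III passes them on to cytochrome c, and complex IV (cytochrome c oxidase) hands them to oxygen. Complexes I, III and IV pump protons, and complex V uses the resulting gradient to make ATP. Most subunits are made from nuclear genes, and those are the genes measured here. Some complex IV subunits exist as a ubiquitous form and a form made mainly in heart, skeletal muscle, lung or testis. Neurons draw most of their ATP from this chain, and its capacity in the rodent cortex grows after birth.

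The 9 arrays had median intensities of 7.67 to 7.71, and the lowest correlation between arrays of 1 group was 0.988. Control replicate 3 and 750 ppm replicate 3 stood apart from the other arrays of their groups. Of 8 neuron markers, 7 read above 10 on every array, from Nefl at 10.91 to 11.67 up to Stmn2 at 14.47 to 14.60, and Syt1 read 8.07 to 8.66. None of the 8 passed the limma test in any contrast; the largest differences were 0.30 for Nefl at 2500 ppm against control and 0.25 for Rbfox3 at 2500 against 750 ppm. Markers of neighbouring tissue were not level across the groups. The mean deviation of 6 choroid plexus and ependyma markers that passed the filter (of 9 listed) was -0.85 to -0.68 in the controls, -0.57 to -0.33 at 750 ppm and 0.32 to 1.76 at 2500 ppm. The range for 8 of 9 striatal markers was 0.25 to 0.75 in the controls, -0.80 to 0.52 at 750 ppm and -0.89 to -0.063 at 2500 ppm. For 8 of 8 markers of meninges and fibroblasts it was -1.21 to -0.12, 0.36 to 0.60 and -0.036 to 0.41. In each of these 3 lists 1 gene passed the limma test at 2500 ppm against control and none at 750 ppm. Of 3 red blood cell markers above the filter (of 7 listed), Alas2 and Slc4a1 passed it at 2500 ppm (limma adjusted p = 0.0381 for both); the mean deviations were -0.42 to -0.29 in the controls, -0.10 to 0.28 at 750 ppm and 0.14 to 0.32 at 2500 ppm. All 7 endothelial markers were above control at both doses and none passed, with mean deviations of -0.54 to -0.11, 0.077 to 0.26 and 0.058 to 0.21. The choroid plexus marker Ttr was lowest on a control array at 7.34, where its level was still above the filter. In whole tissue, fewer cells of a type and less RNA per cell cannot be told apart.

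The first question was whether the subunits of the chain differed at the higher dose. At 2500 ppm none of the 96 probe sets passed the limma test against control at an adjusted p of 0.05, beside 0.686% of all 21729 probe sets tested. At an unadjusted p under 0.05, 4 of 96 (4.17%) were higher, beside 6.89% of all probe sets, and 1 (1.04%) was lower, beside 9.12%. The median difference of the 70 subunit genes was -0.0012, with 34 above 0 and 36 below, and that of all 11606 genes tested was 0.020. Single differences ran from -0.076 for Ndufb7, an accessory subunit of complex I, to 0.10 for Ndufa3, another one. For all 70 subunit genes the 95% interval of the difference lay within a 1.25-fold change in either direction (0.32 on the log2 scale), which was so for 7178 of all 11606 genes. A model with dose as a number called none of the 96 either, beside 0.479% of all probe sets.

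**Figure D1:**
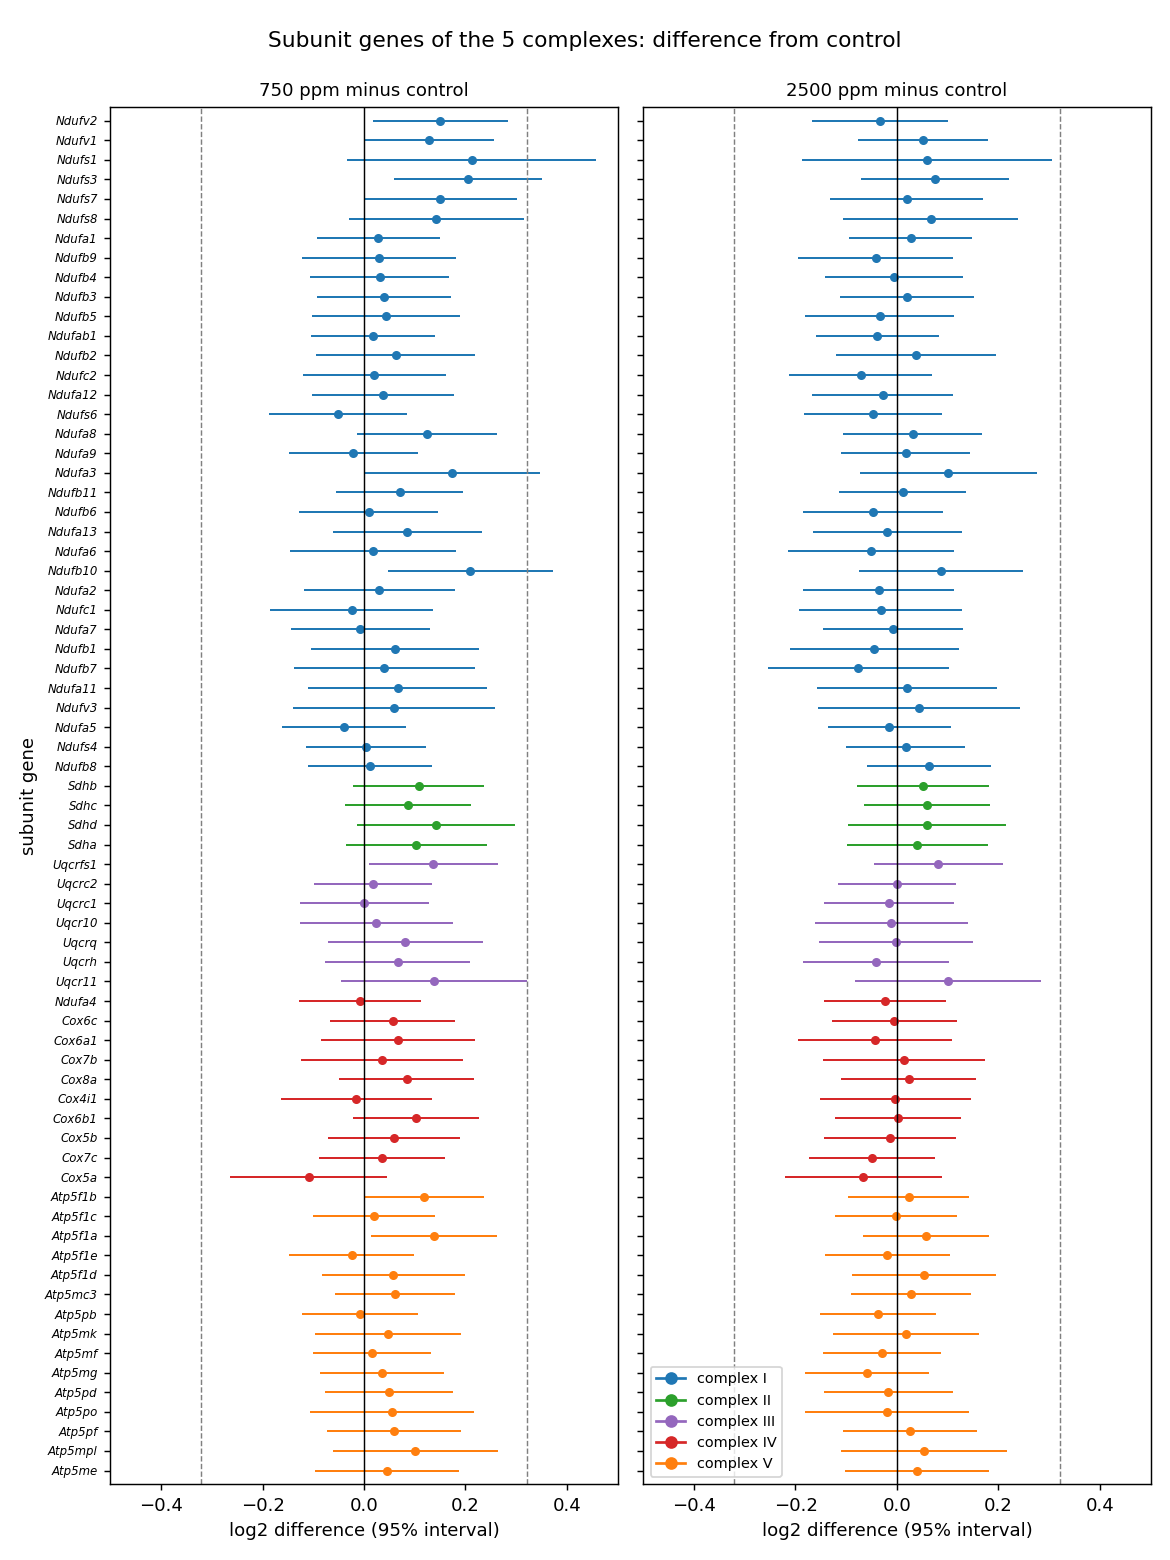
Difference from control of the 70 subunit genes, on the log2 scale, at 750 ppm (left) and 2500 ppm (right). Points are limma estimates from 3 arrays a group, bars are 95% intervals, dashed lines mark a 1.25-fold change, and colours mark the complex. On the right every bar stays between the dashed lines and the points scatter about 0; on the left 60 of 70 points lie above 0 and 4 bars cross a dashed line.

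At 750 ppm the subunits were a little above control as a set, and no single gene passed the test. None of the 96 probe sets had an adjusted p under 0.05, beside 0.0092% of all probe sets. At an unadjusted p under 0.05, 13 of 96 (13.5%) were higher, beside 5.77% of all, and 2 (2.08%) were lower, beside 4.37%. The median difference of the 70 subunit genes was 0.053, with 60 of 70 above 0. Over all genes tested the median was 0.018, with 57.0% above 0. The 2 exposed groups differed from each other at the adjusted threshold in 1 of 96 probe sets (1.04%), that of Cox6a2, beside 0.322% of all. At an unadjusted p under 0.05, 3 (3.12%) were higher and 3 (3.12%) lower at 2500 ppm than at 750 ppm, beside 5.25% and 7.33% of all probe sets. The contrasts with control share the control arrays, and those with 750 ppm share the 750 ppm arrays.

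On average over the 70 subunits, the higher values at 750 ppm came from 2 of the 3 pups. Single genes such as Ndufs3 and Atp5f1a, described below, were above the controls in all 3. The mean deviation of the 70 subunits from their averages over all arrays was 0.085 in replicate 1 of this group, 0.062 in replicate 2 and -0.035 in replicate 3. In the controls it was 0.0007, -0.018 and -0.047, and at 2500 ppm -0.015, -0.022 and -0.011. Replicate 3 at 750 ppm thus lay among the controls, and the groups overlap. By complex, this array lay within the range of the controls in I and III and below it in IV and V. In complex II it read -0.014, above the highest control at -0.033. Without that array the median 750 ppm difference was 0.090 instead of 0.040 for complex I, 0.12 instead of 0.066 for complex III, 0.091 instead of 0.046 for complex IV and 0.087 instead of 0.050 for complex V. Without replicate 1 of this group these medians were 0.017, 0.027, 0.024 and 0.026, and without control replicate 3 that of complex I was 0.025. Over all genes tested the mean deviation of the 3 arrays at 750 ppm was 0.043, 0.011 and -0.0071. Other lists also set replicate 3 apart: the striatal markers averaged 0.52, 0.38 and -0.80, the interneuron markers (6 of 9 above the filter, Pvalb not among them) 0.42, 0.39 and -0.57, the microglial markers 0.32, 0.19 and -0.12, and the red blood cell markers 0.28, 0.20 and -0.10. The endothelial markers, at 0.26, 0.077 and 0.16, did not. Their part in the difference was not tested.

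**Figure D2:**
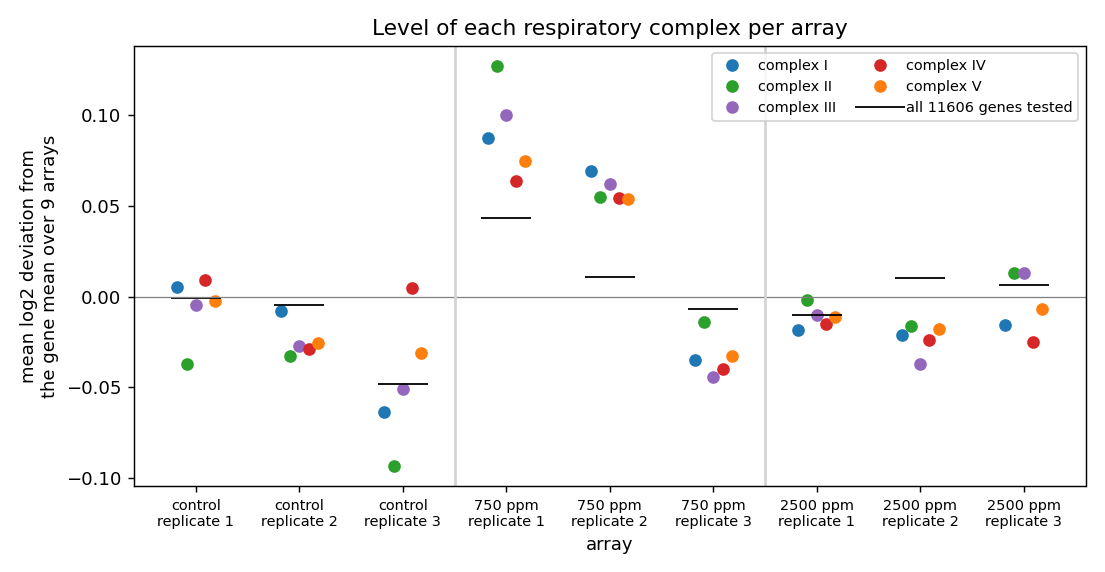
Mean log2 deviation of each complex's subunit genes from their averages over the 9 arrays (vertical axis), by array (horizontal axis); points are the 5 complexes and black lines the mean of all 11606 genes tested. On the 750 ppm arrays the 5 complexes move together: all lie above the black line in replicates 1 and 2 and below it in replicate 3. On control replicate 3 they lie on both sides of it.

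These were among the brightest probe sets on the array, which bears on how small a difference could be seen. The median intensity of the 70 subunits was 12.47, and 57 of 70 were above 11.69, the 90th percentile of all genes tested. Their median standard deviation within groups was 0.056, beside 0.10 for all genes. Intensity depends on the probes as well as the transcript, so the genes are not ranked by it. With the brightest probe set of each gene, only Cox5a was under 10, at 8.17.

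Complex I is the largest of the 5, with a catalytic core, of which 6 nuclear genes were measured, and a shell of accessory subunits, with 28. The differences of the shell were small at either dose. Its median was 0.030 at 750 ppm, with 23 of 28 above 0, and -0.011 at 2500 ppm, with 12 above 0. Over all genes tested, 57.0% and 57.4% were above 0. Ndufa1, the brightest of them, was at 13.26 to 13.28 in the controls, 13.24 to 13.33 at 750 ppm and 13.28 to 13.33 at 2500 ppm. The largest 750 ppm difference in the shell was that of Ndufb10, which read 11.83, 11.78 and 11.74 in the controls, 12.08, 12.04 and 11.86 at 750 ppm and 11.89, 11.91 and 11.81 at 2500 ppm. All 3 values at 750 ppm were above all 3 controls, and those at 2500 ppm overlapped both groups. The difference at 750 ppm was 0.21 (SE 0.071, n = 3 a group; limma unadjusted p = 0.0157, adjusted p = 0.364). Ndufa3, named above for the highest difference at 2500 ppm, differed by 0.17 at 750 ppm.

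The 6 core genes had a higher median at 750 ppm than any whole complex, 0.15. All 6 were above control, beside 57.0% of all genes tested. Of the 6, 4 had an unadjusted p under 0.05, beside 829 of all 11606 genes that were higher at this threshold. The median of the core genes at 2500 ppm was 0.055. Here replicate 3 at 750 ppm lay above every control, as in complex II and unlike in complexes I, III, IV and V taken whole. The mean deviations of the core were 0.15, 0.090 and 0.050 at 750 ppm and -0.059, -0.0053 and -0.14 in the controls. At 2500 ppm they were -0.043, -0.025 and -0.017. The 3 arrays at 750 ppm did not overlap those of either other group. The catalytic head of complex V (lowest 750 ppm array -0.0039, highest control -0.0168) was also clear of the controls. So were the core of complex III (-0.0086 and -0.0126) and the citrate cycle, cytochrome c and mitochondrial stress lists described below. The other lists described with them were not, nor was the complex I shell. Unlike the complex I core, all the sets clear of the controls overlapped the 2500 ppm arrays. Ndufs3, part of the arm that leads electrons to ubiquinone (chr3:97332477-97339654), read 11.002, 11.06 and 11.07 in the controls, 11.34, 11.20 and 11.21 at 750 ppm and 11.04, 11.17 and 11.14 at 2500 ppm. The 750 ppm values lay above all others, by 0.20 over control on average (SE 0.064; limma unadjusted p = 0.0103, adjusted p = 0.318). Ndufv2, an iron-sulfur subunit of the NADH-oxidising module (chr9:113137305-113157571), read 12.10, 12.15 and 12.03 in the controls, 12.26, 12.24 and 12.22 at 750 ppm and 12.12, 12.06 and 11.997 at 2500 ppm. It too was highest in the 3 pups at 750 ppm, with differences of 0.15 from control (SE 0.058; limma adjusted p = 0.438) and of -0.18 between 2500 and 750 ppm (adjusted p = 0.264). Ndufv1, which carries the NADH site, and Ndufs7, which carries the last iron-sulfur cluster, differed from control by 0.13 and 0.15 at 750 ppm (limma adjusted p = 0.486 and 0.489). Ndufs1, the largest core subunit, had the highest difference, 0.21, but its control values of 11.23, 11.36 and 10.87 spread widely and overlapped the 11.39, 11.34 and 11.36 at 750 ppm. Ndufs8 also overlapped. Leaving out single arrays gave a core median at 750 ppm of 0.11 to 0.20.

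**Figure D3:**
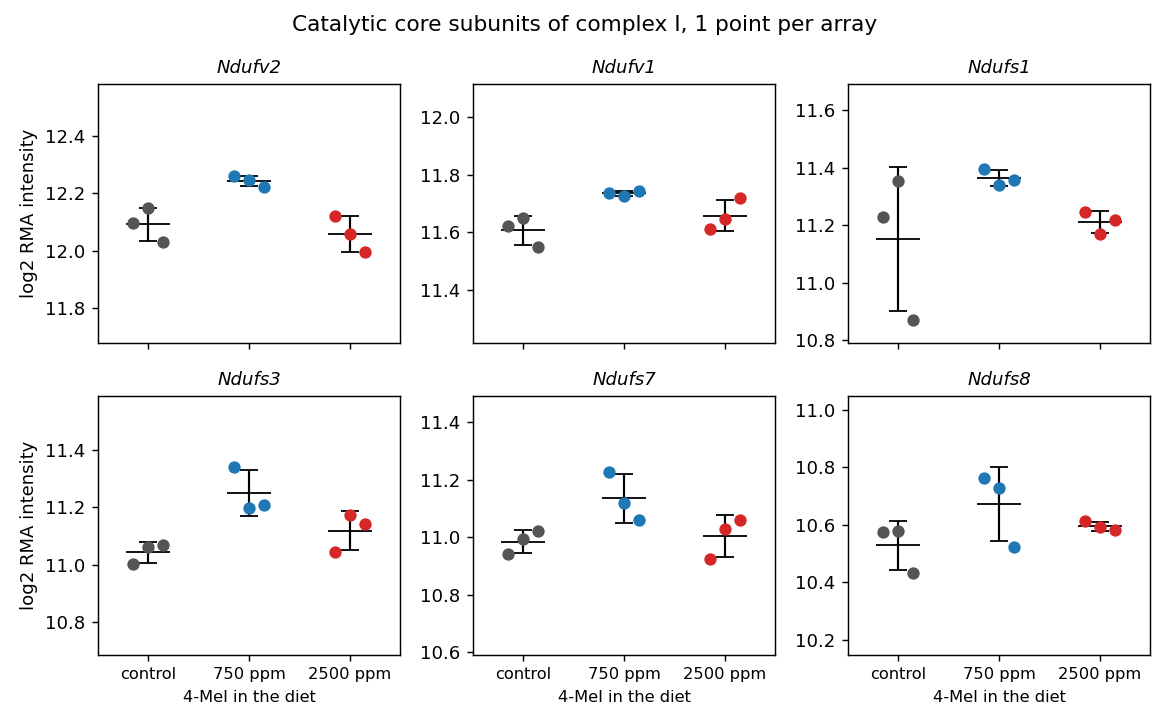
Log2 intensity (vertical axes) of the 6 core genes of complex I by dose group (horizontal axis), 1 point per array, with the mean and 1 SD of 3 arrays; every panel spans the same number of log2 units. The 750 ppm points lie above the control points without overlap for Ndufv2, Ndufv1, Ndufs3 and Ndufs7, and overlap them for Ndufs1 and Ndufs8. The share of all genes tested without such overlap was not counted.

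Complex II, succinate dehydrogenase, joins the citrate cycle to the chain and has 4 subunits, all nuclear. All 4 were above control at both doses, with a median of 0.11 at 750 ppm and 0.055 at 2500 ppm, and none of their brightest probe sets had an unadjusted p under 0.05. Sdha, the flavoprotein that holds the succinate site (chr1:30764553-30789523), read 11.27, 11.32 and 11.29 in the controls, 11.49, 11.36 and 11.33 at 750 ppm and 11.30, 11.31 and 11.39 at 2500 ppm. The 750 ppm values were above the controls by 0.10 on average (SE 0.061; limma adjusted p = 0.581). Sdhb, the iron-sulfur subunit, differed by 0.11 at 750 ppm and 0.051 at 2500 ppm, and Sdhc, a membrane anchor, by 0.087 and 0.060. Sdhd, the other anchor, has 2 probe sets, and both were above control at 750 ppm, by 0.14 on the brighter and 0.19 on the other (limma adjusted p = 0.517 and 0.358).

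In complex III, all 7 subunits were above control at 750 ppm, with a median of 0.066, and 2 of 7 at 2500 ppm, with a median of -0.0021. Uqcrfs1, the Rieske iron-sulfur protein, read 12.71, 12.70 and 12.68 in the controls, 12.87, 12.83 and 12.80 at 750 ppm and 12.72, 12.78 and 12.83 at 2500 ppm. Both exposed groups lay above the controls without overlap, by 0.14 at 750 ppm (SE 0.055; limma adjusted p = 0.457) and 0.082 at 2500 ppm (adjusted p = 0.502). At 2500 ppm the differences of the complex ran from -0.042 for Uqcrh, the hinge subunit, to 0.10 for Uqcr11, a small membrane subunit. Uqcr10, the brightest, read 12.93 to 13.12 on all 9 arrays.

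Complex IV, with its 10 ubiquitous nuclear subunits, had a median of 0.046 at 750 ppm and -0.0094 at 2500 ppm, and no subunit had an unadjusted p under 0.05 in either contrast. Its differences at 2500 ppm ran from -0.066 for Cox5a to 0.024 for Cox8a, and at 750 ppm from -0.11 for Cox5a to 0.10 for Cox6b1. The Cox5a values come from a probe set with a mean of 8.17; a brighter one that carries a second symbol beside Cox5a, and so is not counted, had a mean of 13.38 and differed by 0.027 and 0.034. Ndufa4, first assigned to complex I and now counted with complex IV, read between 13.63 and 13.73 on all 9 arrays. Cox4i1, the ubiquitous form of the regulatory subunit 4, read 12.99 to 13.14 over the same arrays. Probe sets annotated to the mitochondrial genes COX1 and COX2, chosen after the values of the nuclear genes were seen, lay between 14.91 and 15.04 and between 14.83 and 14.91. Their differences from control were -0.061 and -0.035 at 2500 ppm and -0.073 and -0.012 at 750 ppm, and none passed the limma test.

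In complex V the median was 0.050 at 750 ppm and 0.017 at 2500 ppm over 15 subunits. Atp5f1a, the alpha subunit of the catalytic head, read 12.97, 12.93 and 12.94 in the controls, 13.07, 13.05 and 13.13 at 750 ppm and 12.96, 12.99 and 13.05 at 2500 ppm. The 750 ppm group lay above the controls by 0.14 (SE 0.054; limma adjusted p = 0.446), and its values met those at 2500 ppm. Atp5f1b, the beta subunit with the catalytic sites, differed by 0.12 (limma adjusted p = 0.491). The differences at 2500 ppm ran from -0.059 for Atp5mg, a membrane subunit, to 0.058 for Atp5f1a. Atp5mc3, a form of the c subunit of the rotor ring, read 13.72 to 13.84 on all arrays. Atp5if1, which inhibits the enzyme, differed by -0.037 at 2500 ppm and 0.027 at 750 ppm.

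Atp5po, the stalk subunit that confers oligomycin sensitivity, had 2 probe sets that disagreed. The bright one, with a mean of 12.77, differed by -0.019 at 2500 ppm. The dim one, with a mean of 7.15, read 7.13, 7.05 and 7.01 in the controls, 7.02, 7.04 and 7.17 at 750 ppm and 7.29, 7.25 and 7.33 at 2500 ppm. On it the 2500 ppm group lay above both others, by 0.23 over control (SE 0.063; limma unadjusted p = 0.00534, adjusted p = 0.133). The array values do not tell which transcript each probe set reads. Uqcrc2, Sdhd and 6 other genes with several tested probe sets showed no such opposition at an unadjusted p under 0.05.

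The assembly factors, which build the complexes without staying in them, had medians of 0.065 at 750 ppm and 0.044 at 2500 ppm. Sdhaf1, which delivers iron-sulfur clusters to Sdhb (chr1:94703662-94704611), read 10.82, 10.88 and 10.60 in the controls, 10.94, 10.92 and 11.05 at 750 ppm and 10.93, 11.03 and 11.04 at 2500 ppm. Both exposed groups lay above the controls, by 0.20 (SE 0.083; limma adjusted p = 0.464) and 0.23 (adjusted p = 0.216). Without control replicate 3 and 750 ppm replicate 3 together the first of these was 0.075. Sdhaf3 and Sdhaf4, which also act in the assembly of complex II, differed from control at 2500 ppm by -0.19 and -0.16 (limma adjusted p = 0.307 and 0.33). Ndufaf1, an early factor of complex I, read 6.95, 7.18 and 6.92 in the controls, 7.29, 7.10 and 7.49 at 750 ppm and 7.18, 7.20 and 7.37 at 2500 ppm. Its groups overlapped, and the differences were 0.27 and 0.23 (limma adjusted p = 0.458 and 0.356). Ndufaf7, a methyltransferase for complex I, differed by 0.088 at 2500 ppm.

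Among the 4 tissue-specific isoforms tested, Cox6a2 and Cox6b2 departed from the rest of the chain. Cox6a2 and Cox6b2, the heart and muscle form and the testis form of complex IV subunits 6A and 6B, were lowest at 750 ppm and highest at 2500 ppm, while the ubiquitous forms Cox6a1 and Cox6b1 differed by at most 0.10 from control. Cox6a2 (chr1:192218970-192221188, minus strand) read 7.60, 7.19 and 7.46 in the controls, 6.94, 7.17 and 7.005 at 750 ppm and 7.64, 7.92 and 8.05 at 2500 ppm. The 3 groups did not overlap. The gene was 0.83 higher at 2500 ppm than at 750 ppm (SE 0.13, 95% interval 0.54 to 1.13; limma adjusted p = 0.0398), the single difference among the 96 probe sets to pass the test. Against control it differed by 0.46 at 2500 ppm (SE 0.13; limma adjusted p = 0.139) and by -0.38 at 750 ppm (adjusted p = 0.372). The difference between the exposed groups was 0.74 to 0.95 when single arrays were left out, but its adjusted p was above 0.05 in 7 of those 9 fits, at up to 0.163: without control replicate 1 or 3, 750 ppm replicate 1 or 2, or any 2500 ppm array. It was also lost with only those 6 arrays in the fit, at an adjusted p of 0.0729.

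Cox6b2 (chr1:78122871-78124096, plus strand) read 9.78, 10.16 and 9.39 in the controls, 9.07, 8.93 and 9.001 at 750 ppm and 10.49, 10.59 and 9.77 at 2500 ppm. The 750 ppm values lay below all others within a narrow range, and the control and 2500 ppm values overlapped. Between the exposed groups the difference was 1.28 (SE 0.23, 95% interval 0.76 to 1.80; limma adjusted p = 0.0641), and against control it was 0.51 at 2500 ppm (adjusted p = 0.321) and -0.77 at 750 ppm (adjusted p = 0.3). Without 750 ppm replicate 3 the adjusted p of the first was 0.0424, and without 2500 ppm replicate 3 it was 0.03, with a difference of 1.54.

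**Figure D4:**
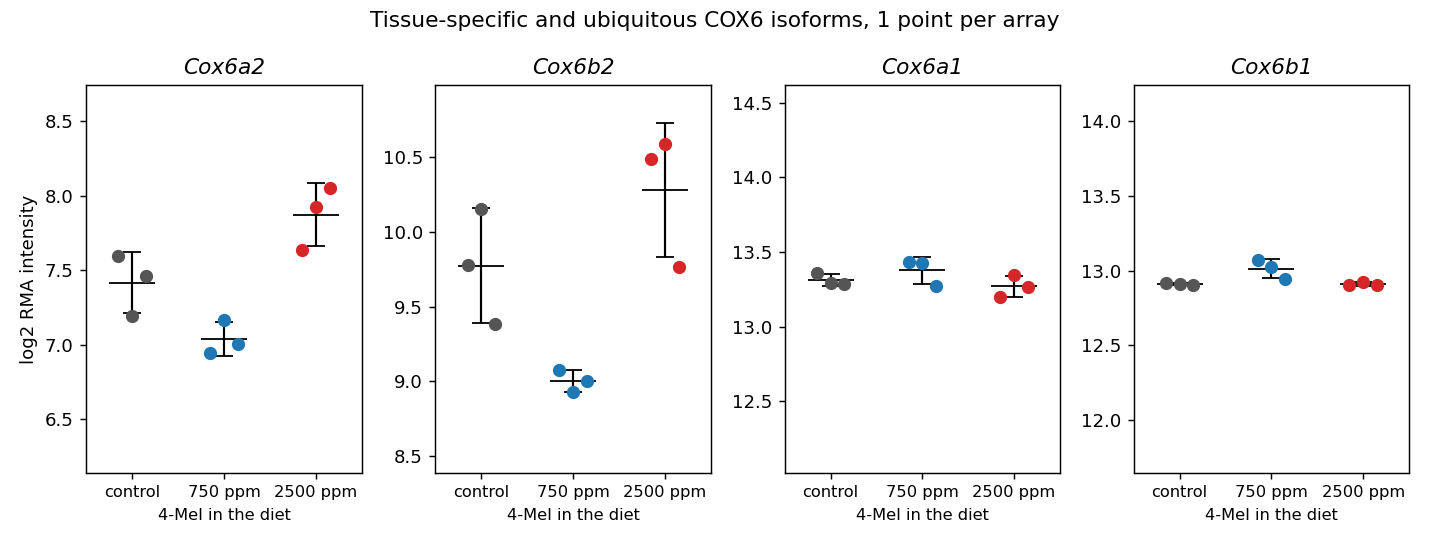
Log2 intensity (vertical axes) of the tissue-specific isoforms Cox6a2 and Cox6b2 and of their ubiquitous forms Cox6a1 and Cox6b1 by dose group (horizontal axis), 1 point per array, with the mean and 1 SD of 3 arrays; all panels span the same number of log2 units. Cox6a2 and Cox6b2 are lowest in the 3 pups at 750 ppm, and the ubiquitous forms read 13.20 to 13.43 and 12.90 to 13.07 over all arrays.

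Beside both genes, the choroid plexus and ependyma markers averaged 1.76, 1.52 and 0.32 on the 3 arrays at 2500 ppm, in the order in which Cox6b2 read 10.49, 10.59 and 9.77 and Cox6a2 7.64, 7.92 and 8.05. Cox6b2 was thus lower on the array where these markers were lower, and Cox6a2 was not. Averaged over the list, these markers were lower in the controls than at 750 ppm, unlike both isoforms. By gene, 2 were above control at 750 ppm and 4 below, with a median difference of -0.028. Averaged over the list, the oligodendrocyte lineage markers, of which 6 of 8 passed the filter, were lowest at 750 ppm, as the isoforms were. The list averaged -0.095 to 0.097 in the controls, -0.17 to -0.056 at 750 ppm and 0.013 to 0.21 at 2500 ppm. The control and 750 ppm arrays overlapped. By gene, 5 of the 6 were below control at 750 ppm and 1 above, and at 2500 ppm 4 were above and 2 below. All 6 were higher at 2500 than at 750 ppm, with a median of 0.18, and none passed the limma test. The markers of skeletal and cardiac muscle, of which 5 of 14 passed the filter, averaged 0.021 to 0.064 in the controls. They averaged -0.17 to 0.18 at 750 ppm and -0.11 to -0.088 at 2500 ppm. Of the 5, Myh7 had the widest range at 750 ppm, at 8.38, 8.34 and 7.02. With so few markers above the filter, this list says little about muscle. The part of other tissue in these differences was not tested.

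The other isoforms showed no such pattern. Cox7a1, the heart and muscle form of subunit 7A, read 7.21 to 7.52 on all 9 arrays, and Ndufa4l2, a relative of Ndufa4 that is known to respond to low oxygen, read 7.28 to 7.54. Their differences from control ran from -0.071 to 0.066. Cox4i2 at 5.51 to 5.82, Cox7b2 at 4.43 to 4.74 and Cox8b at 4.97 to 5.48 were below the filter at 6.35 on every array and were not tested. Cox7b and Cox8a, the ubiquitous forms of subunits 7B and 8, differed from control by 0.035 and 0.085 at 750 ppm and by 0.015 and 0.024 at 2500 ppm. Cox7a2 was read only by a probe set with several symbols and is not counted.

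The promoter sequences set the isoforms beside the ubiquitous subunits. RefSeq (GRCr8) gave the 250 bases before the transcription start for 82 of the 90 genes. Motifs were searched on both strands, and no motif contains another. The nuclear respiratory factors NRF1 and GABPA are known activators of respiratory chain genes. The GABPA letters CCGGAAG were found in 19 of 64 subunit promoters (29.7%), beside 7.27% of 33469 promoters in the table, and the NRF1 letters (GCGCA, any base, GCGC) in 10 (15.6%), beside 3.75%. None of the 6 isoform promoters held either. This was not particular to the isoforms: of 8 promoters of ubiquitous complex IV subunits, 2 held the GABPA letters and 0 the NRF1 letters. Those of Cox4i1, Cox6b1, Cox7b and Ndufa4, the ubiquitous partners of isoforms, held neither, and Cox6a1 had no promoter in the table. The SP1 letters GGGCGG were in 32.8% of subunit promoters and 30.5% of all, and TATAAA in 10.9% and 12.9%. Letters bound by muscle factors, the E-box CAGCTG and the MEF2 letters (CTA, any 4 bases, TAG), were in 9.38% and 1.56% of subunit promoters, beside 12% and 3.41% of all. A match is a description of the letters and not a shown binding site. The 4 sequences below show these arrangements, 5′ to 3′ on the strand of the gene and ending at the base before the start, with matches in capitals. Cox6a2 (chr1:192219717-192219966, minus strand, a window inside the span of the longest gene model) holds an E-box at positions -107 to -102 and MEF2 letters at -50 to -41. Cox6b2 (chr1:78122621-78122870, plus strand) holds none of the motifs. Sdha (chr1:30764303-30764552, plus strand) holds the NRF1 letters at positions -89 and -46, and Cox8a (chr1:213833624-213833873, minus strand) holds the GABPA letters on the opposite strand at -57 and -19.
Cox6a2: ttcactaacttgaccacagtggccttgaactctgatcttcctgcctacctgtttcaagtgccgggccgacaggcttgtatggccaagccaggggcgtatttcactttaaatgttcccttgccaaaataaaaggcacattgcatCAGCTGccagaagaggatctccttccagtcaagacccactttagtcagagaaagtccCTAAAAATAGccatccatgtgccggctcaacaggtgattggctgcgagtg
Cox6b2: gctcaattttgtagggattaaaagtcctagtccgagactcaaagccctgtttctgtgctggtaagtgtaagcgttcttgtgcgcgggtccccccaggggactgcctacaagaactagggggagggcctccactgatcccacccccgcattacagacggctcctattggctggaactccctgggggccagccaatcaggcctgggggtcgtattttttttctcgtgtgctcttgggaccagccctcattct
Sdha: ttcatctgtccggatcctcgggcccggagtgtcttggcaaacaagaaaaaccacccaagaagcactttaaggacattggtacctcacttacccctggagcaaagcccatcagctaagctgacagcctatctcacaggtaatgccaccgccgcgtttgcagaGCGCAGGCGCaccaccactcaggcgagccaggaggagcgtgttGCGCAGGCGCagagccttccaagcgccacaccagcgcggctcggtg
Cox8a: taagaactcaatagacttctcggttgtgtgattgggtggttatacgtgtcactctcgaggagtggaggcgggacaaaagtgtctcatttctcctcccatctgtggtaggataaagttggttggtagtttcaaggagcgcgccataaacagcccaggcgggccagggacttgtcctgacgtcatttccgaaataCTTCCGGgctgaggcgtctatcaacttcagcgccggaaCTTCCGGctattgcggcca

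The pathways around the chain were read from 8 gene lists, and no gene of any of them had an adjusted p under 0.05 in any of the 3 contrasts. The citrate cycle, which supplies NADH and succinate, had a median of 0.093 at 750 ppm and 0.050 at 2500 ppm over 16 genes, with 15 and 13 above 0. Its largest 750 ppm difference was that of Suclg1, a subunit of succinyl-CoA ligase, at 0.28 (limma adjusted p = 0.363). Cytochrome c and the electron carriers (17 genes) had medians of 0.080 and 0.047, and 30 further genes for assembly and for copper or haem delivery 0.071 and 0.023. Of these Bcs1l, which inserts Uqcrfs1 into complex III, differed by 0.37 and 0.31 (limma adjusted p = 0.398 and 0.302). Mitochondrial ribosome proteins (73 genes) had medians of 0.055 and 0.028. The list on mitochondrial biogenesis and DNA (18 genes), which holds the regulators of this programme, had -0.030 and -0.035, with no gene at an unadjusted p under 0.05.

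Glycolysis (19 genes) had medians of 0.063 at 750 ppm and 0.015 at 2500 ppm. In this list Pfkp had the smallest unadjusted p at 2500 ppm, where its 11.48, 11.37 and 11.34 were below all its other values. It differed by -0.28 from control (limma adjusted p = 0.095) and by -0.37 from 750 ppm (adjusted p = 0.0647). Slc2a3, the neuronal glucose transporter GLUT3, read 9.83, 9.90 and 10.07 in the controls, 10.37, 10.08 and 9.96 at 750 ppm and 9.60, 9.51 and 9.62 at 2500 ppm. The values at 2500 ppm were below all others, with differences of -0.36 from control (SE 0.11; limma adjusted p = 0.152) and -0.56 from 750 ppm (adjusted p = 0.0735). The hypoxia list (9 genes) had medians of 0.040 and -0.047, and the list on mitochondrial stress and defence (18 genes) 0.055 and 0.036.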

How the data were processed

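Each pup's RNA was hybridised to 1 Affymetrix Rat Genome 230 2.0 array after amplification from 100 ng, per the labels. The deposited values are log2 intensities, made with affy and RMA per the submitters' processing notes (versions not given in the sources used here). RMA sets all arrays to the same distribution, so a change common to all transcripts would not be seen, and it compresses differences near background. The 57 control probe sets and the 30% dimmest others (mean up to 6.35) were left out, which kept 21729. Group means over all 9 arrays were fitted in limma 3.58.1 (R 4.3.3, statmod 1.5.0) with empirical Bayes variances. P-values are two-sided, with Benjamini-Hochberg adjustment over all 21729 and a threshold of 0.05. An exact permutation test of 3 against 3 arrays cannot go below 0.1. Summaries over genes use the brightest probe set of each. The number of arrays limits the precision.

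Genes named were those called, the 8 smallest p-values per contrast with control, the extremes of each complex, the isoforms with their partners, genes with disagreeing probe sets and up to 3 per related list; other genes were named after their values were seen. Members, lists and tests were chosen with earlier results of these data known. Same-numbered arrays of different groups correlated at -0.21 to 0.31, so the numbers were not taken as pairs. Alternatives were other filters, scalings and variance models, a replicate block and leaving out arrays. The fits were tested on simulated data.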

Additional observations from a re-analysis of the deposited data

Results flagged for a closer look

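Cox6a2 differed between the 2 doses in the main fit. Its difference from the same control arrays was -0.38 at 750 ppm and 0.46 at 2500 ppm (limma adjusted p = 0.372 and 0.139). The limma test between the doses, for a difference of 0.83 on the log2 scale, gave an adjusted p of 0.0398. This call held in 2 of the 9 fits that each left out 1 array. It was lost with the replicate block and with only the 2 groups compared. All 3 values at 750 ppm were below all 3 controls, and all 3 at 2500 ppm were above them. The nearest values were 7.17 at 750 ppm and 7.19 in the controls, and 7.60 in the controls and 7.64 at 2500 ppm.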

How the results depend on the processing

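The limma calls of single genes were few and moved with the setting. Of 2067 recomputed values of 99 gene differences, 2045 kept their direction and side of the threshold or moved by less than 1 SD, 8 moved by more, 9 lost and 5 gained a call, and none reversed; the call lost was that of Cox6a2 at 2500 against 750 ppm and the call gained that of Cox6b2. With the replicate block, in which arrays share only a number, Cox6a2 had an adjusted p of 0.0853, the count of chain probe sets called at 2500 against 750 ppm was 0 and that of all probe sets 36 instead of 70; no other call on the chain changed. Chain probe sets called in this contrast numbered 0 with the 50% dimmest left out (Cox6a2 is then not tested), 0 with only the 2 groups compared, 2 with an intensity trend, 2 with array weights, 3 without control replicate 3 and 750 ppm replicate 3 together, 2 at an adjusted p under 0.1, 6 at an unadjusted p under 0.05 and 0 to 2 when single arrays were left out. At 2500 ppm against control they numbered 1 with array weights and 5 at an unadjusted p under 0.05, where they numbered 15 at 750 ppm and 5 for the dose trend. All probe sets called at 2500 ppm against control numbered 149, and 1495 with array weights, 481 with only the 2 groups, 66 over genes, 263 without both replicates 3, 585 at an adjusted p under 0.1, 3478 at an unadjusted p under 0.05 and 9 to 466 with single arrays left out. At 750 ppm against control they numbered 2, and 340, 1, 1, 71, 3 and 2202 in that order, with 0 to 48 for single arrays. At 2500 against 750 ppm they numbered 70, and 721, 14, 40, 1149, 205 and 2733, with 13 to 731. Array weights gave medians at 2500 ppm of -0.0267 for complex I and -0.0072 for complex V. Without both replicates 3 the median of complex V at 2500 ppm was 0.0023, that of complex IV at 750 ppm 0.0971 and that of complex III at 2500 against 750 ppm -0.0928. With single arrays left out, the medians at 2500 ppm were -0.0326 to -0.0026 for complex IV and -0.0045 to 0.0198 for complex V, that of complex IV at 750 ppm 0.0239 to 0.0911, and at 2500 against 750 ppm -0.0928 to -0.0084 for complex III and -0.1532 to -0.0839 for the complex I core. The cause of these shifts was not tested. RMA values carry no detection call, so differences of dim probe sets such as those of Cox6a2 and the second Atp5po probe set may be understated.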
